A study of Homo sapiens with 9 samples.

Results

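The genes described here are 41 integrin chains and focal adhesion proteins, the receptors and cytoplasmic proteins through which a cell holds on to its surroundings, other than the collagen-binding integrins. They were taken by gene name from a list that was drawn up with earlier results of these data known; the list itself applies no threshold to measured values. A member was counted as measured where at least 1 probe set of the array was annotated to it alone, and the brightest such probe set stood for the gene. This gave 39 measured members, with 129 probe sets between them, among 19775 genes in all. The beta chain ITGB6 was not measured, because its 4 probe sets were shared with a noncoding RNA, and the adaptor CRK had no probe set of its own.

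The cells were HT1080, an established human fibrosarcoma line of mesenchymal character. They were seeded on a thick gel of fibrillar bovine collagen at 1.7 mg/ml, in medium with 10% serum, and had 24 h to adhere before any treatment. The treated groups were then kept for 4 h or 24 h in a protease inhibitor mix: GM6001 at 100 µM, which inhibits matrix metalloproteinases, pepstatin A at 50 µM, which inhibits aspartic proteases, E64 at 250 µM, which inhibits cysteine proteases, and aprotinin and leupeptin at 2 µM each, which inhibit serine proteases (leupeptin also cysteine proteases). Control cells are called untreated in the labels and vehicle in the titles, and neither the vehicle nor their time of harvest is given in the sources used here. The series' design text calls the 3 samples of each group biological replicates and names the mix as a kinase inhibitor mix, whereas the treatment protocol lists the protease inhibitors above. Each sample was hybridised to 1 one-colour Affymetrix array, 9 in all, and the comparisons asked how transcript levels differed from untreated cells at 4 h and at 24 h and between both times.

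Integrins are paired alpha and beta chains that bind matrix proteins outside the cell. Talin and kindlin bind the beta chain from inside and switch the receptor on, while vinculin, tensins and the complex of ILK, PINCH and parvin tie it to actin. The kinases FAK and SRC and adaptors such as p130Cas and paxillin pass the signal on, and LIM proteins such as zyxin gather where adhesions and actin bundles carry force. Nearly all of the integrins listed here bind laminin, fibronectin, vitronectin or related ligands rather than fibrillar collagen.

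Values are deposited intensities on a linear scale, in which each array has a mean of 100 after trimming 2% at each end. The median intensity per array was between 14.2 and 18.2. The line's markers fitted its label: all 10 mesenchymal markers had a mean of 16 or more, among them vimentin (VIM), against 0 of 6 epithelial markers, 1 of 7 leukocyte markers (ITGAL), 1 of 5 endothelial markers (PECAM1) and 1 of 4 platelet markers (ITGA2B). The summed intensity of the 5 endothelial markers lay between 32.2 and 47.8 on untreated arrays, between 55.2 and 88.4 at 4 h and between 70.1 and 116.6 at 24 h. Among them CDH5 had a mean of 4.26 and VWF of 7.53. Sums of the epithelial markers ran from 21.4 to 23.8 untreated, 27.7 to 60.2 at 4 h and 17.1 to 69.1 at 24 h. Those of the platelet markers ran from 13.3 to 31.5, 34.8 to 41.7 and 18.2 to 56.0, so higher sums at 4 h were not particular to endothelial markers. The leukocyte sums overlapped between all groups. The array measures also moved with treatment. The 5' to 3' signal ratio of the ACTB transcript, which reflects RNA quality, was 0.893 ± 0.034 (SD, n = 3) untreated, 0.723 ± 0.133 at 4 h and 0.697 ± 0.038 at 24 h (exact two-sided permutation p = 0.2 and 0.1 against untreated, where 0.1 is the smallest that 3 arrays against 3 can give). The same ratio of GAPDH moved the other way, from 1.049 ± 0.001 untreated to 1.074 ± 0.028 at 4 h and 1.079 ± 0.018 at 24 h, with exact p of 0.3 and 0.1. For ACTB, replicate 2 of the 4 h group, at 0.871, lay within the untreated range of 0.855 to 0.922, whereas the other 4 h arrays were at 0.682 and 0.615 and the 24 h arrays lay between 0.654 and 0.727. Spiked poly-A control RNAs averaged 9.26 on the log2 scale in untreated samples and 10.18 and 10.62 in the 4 h and 24 h groups (exact p = 0.1 for each time). The part of these measures in the results below was not tested, except where a value is given.

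No member passed an adjusted p of 0.05 in any comparison (limma over all genes, Benjamini-Hochberg). That threshold was passed by 0.47% of all genes at 24 h against untreated, 0.253% at 4 h against untreated and 0.142% at 24 h against 4 h, shares at which fewer than 1 of 39 genes would be called. At an unadjusted p under 0.05, 9 of the 39 members (23.1%) were lower at 24 h than in untreated cells, beside 7.65% of all genes: the laminin-binding chains ITGA3, ITGA6 and ITGB4, the adaptors BCAR1, PXN and CRKL, and the LIM proteins ZYX, TRIP6 and TES. At that threshold 1 member (2.56%), LPP, was higher, beside 8.15% of all genes. The members' median log2 change at 24 h was -0.17, and that of all genes 0.01. With probe sets averaged, the members' median was -0.10. In that run 7 members were lower and 0 higher at an unadjusted p under 0.05, beside 7.3% and 6.62% of all genes. These were ITGA3, ITGA6, CRKL, ZYX, TRIP6, KANK2 and PARVB, whereas BCAR1, ITGB4, PXN, TES and LPP did not pass. Without untreated replicate 3, 6 members were lower and 0 higher, beside 6.28% and 6.21% of all genes. Dim genes are more common among all genes than among members, which affects these shares. With genes under the 40th percentile filtered out, 8 of 33 members were lower and 1 higher, beside 12.0% and 12.2% of all genes. With all arrays and no filter, a change below 0 was found in 26 members (66.7%, beside 48.4% of all genes). RNA came from whole cultures, so fewer cells carrying a transcript and less transcript per cell cannot be told apart.

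At 4 h against untreated the members differed less from the background of all genes in the number past an unadjusted p of 0.05. ITGA3, BCAR1 and KANK1 were lower (7.69%, beside 5.43% of all genes) and LPP was higher (2.56%, beside 6.91%). A change below 0 was nonetheless found in 29 members (74.4%, beside 47.8% of all genes), and their median log2 change was -0.15 beside 0.01. Without replicate 2 of the 4 h group, the array with the untreated-like ACTB ratio, 9 members were lower and 2 higher at 4 h, beside 7.29% and 7.78% of all genes. That run was singled out after seeing the data. With median centring of the arrays the counts at 4 h were 6 lower and 0 higher, beside 6.62% and 5.19% of all genes. Without replicate 3 of the 4 h group they were 3 lower and 0 higher, beside 4.76% and 6.64%. In that run 26 members had a change below 0 at 4 h, and the members' median was -0.10. With probe sets averaged 25 members were below 0 at 4 h, with a median of -0.04. Between the times, ITGB4, BCAR1 and PXN were lower at 24 h than at 4 h (7.69%, beside 6.15% of all genes), no member was higher (beside 5.2%), and 22 members (56.4%, beside 50.9%) had a change below 0. With quantile normalization 5 were lower and 1 higher, beside 5.58% and 5.63% of all genes, and with median centring 3 lower and 2 higher, beside 4.41% and 6.06%. Without replicate 3 of the 4 h group 6 were lower and 1 higher (7.25% and 5.55% of all genes). Without replicate 1 of the 4 h group (6% and 5.38% of all genes) or replicate 1 of the 24 h group (5.54% and 4.29%) 4 were lower and 1 higher. Both comparisons with untreated cells share the same 3 untreated arrays.

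**Figure D1:**
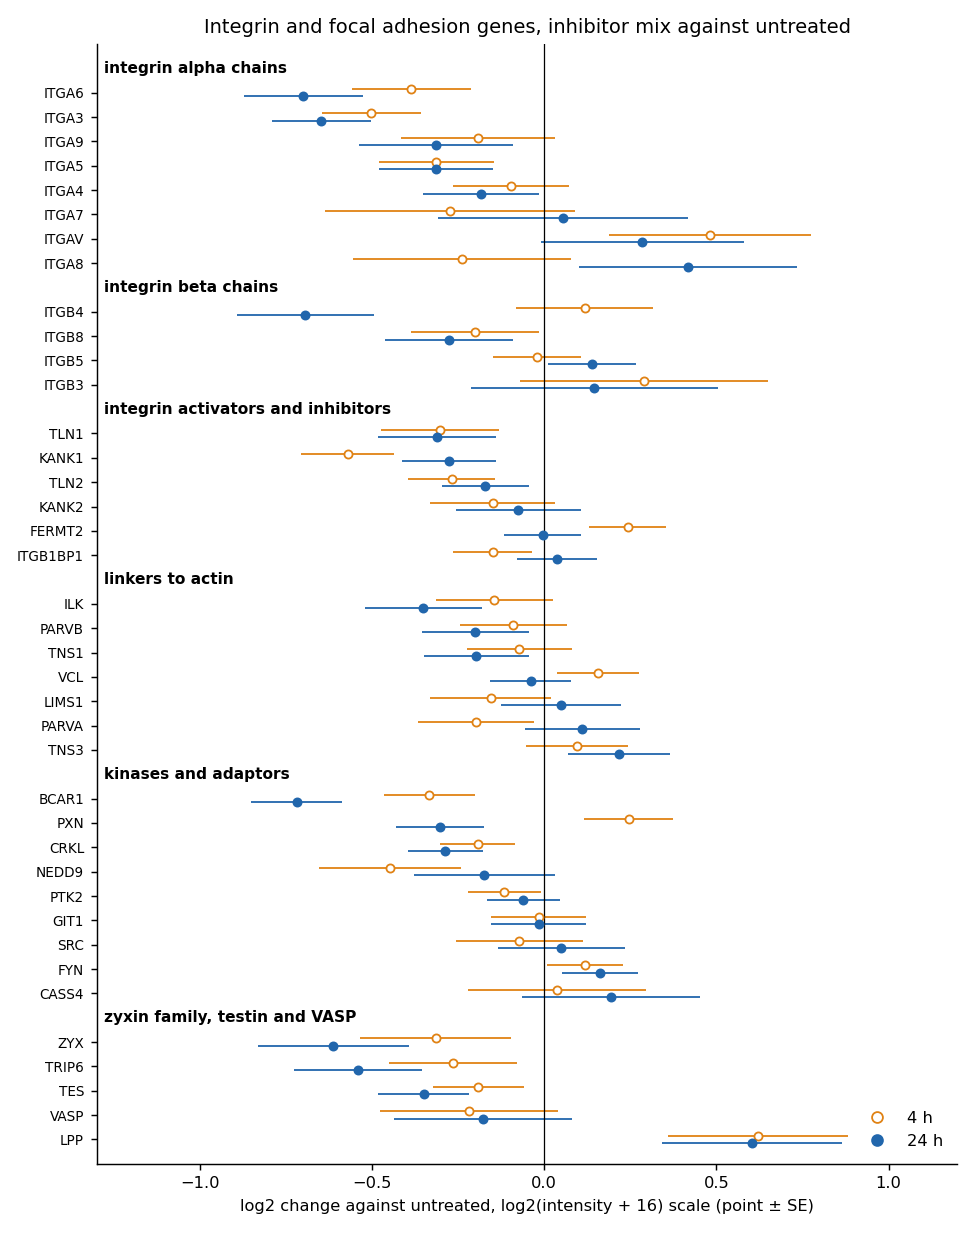
Log2 change against untreated cells at 4 h (open orange) and 24 h (filled blue) for the 39 measured members, grouped by role, with bars of 1 SE from limma. At 24 h most points lie left of 0, with BCAR1 at -0.72, ITGA6 at -0.70 and ITGA3 at -0.65, while LPP stands furthest to the right at 0.60.

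The stretches of 250 bases before the transcription start are shown for ITGA6, BCAR1, ZYX and TRIP6, which had the lowest log2 changes at 24 h among members that were not dim and had an entry, and for LPP, the member with the highest change. Sequences are from RefSeq (GRCh38.p14), in which 32 of the 41 members had an entry, with 67 starts between them; ITGA3 had none. Each runs 5′ to 3′ along the gene's own strand, and capitals mark matches to the motifs named below. ITGA6 lies on chromosome 2 (first of 2 starts), BCAR1 on chromosome 16 (first of 5), ZYX and TRIP6 on chromosome 7 (1 start each) and LPP on chromosome 3 (first of 7). Which start these cells used was not tested.
ITGA6, chr2:172427086-172427335 (+): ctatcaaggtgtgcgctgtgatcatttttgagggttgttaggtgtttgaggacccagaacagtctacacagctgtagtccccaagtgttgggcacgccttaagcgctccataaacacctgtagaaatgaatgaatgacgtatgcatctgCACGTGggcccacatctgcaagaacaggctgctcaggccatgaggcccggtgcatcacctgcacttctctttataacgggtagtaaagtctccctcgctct
BCAR1, chr16:75268008-75268257 (-): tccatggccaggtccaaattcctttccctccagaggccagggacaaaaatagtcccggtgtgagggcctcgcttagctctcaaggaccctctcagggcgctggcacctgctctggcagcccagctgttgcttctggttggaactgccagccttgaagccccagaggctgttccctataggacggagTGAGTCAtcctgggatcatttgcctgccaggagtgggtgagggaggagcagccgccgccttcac
ZYX, chr7:143381095-143381344 (+): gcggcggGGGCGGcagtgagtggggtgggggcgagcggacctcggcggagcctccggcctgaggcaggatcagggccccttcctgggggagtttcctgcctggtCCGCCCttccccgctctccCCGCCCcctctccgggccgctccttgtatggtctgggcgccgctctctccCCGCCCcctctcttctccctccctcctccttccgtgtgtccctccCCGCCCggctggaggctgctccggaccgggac
TRIP6, chr7:100867137-100867386 (+): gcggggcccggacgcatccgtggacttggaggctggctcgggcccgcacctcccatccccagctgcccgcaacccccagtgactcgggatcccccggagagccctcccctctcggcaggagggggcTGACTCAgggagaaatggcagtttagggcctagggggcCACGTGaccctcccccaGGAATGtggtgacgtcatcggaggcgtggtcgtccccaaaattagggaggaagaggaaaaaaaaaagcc
LPP, chr3:188153648-188153897 (+): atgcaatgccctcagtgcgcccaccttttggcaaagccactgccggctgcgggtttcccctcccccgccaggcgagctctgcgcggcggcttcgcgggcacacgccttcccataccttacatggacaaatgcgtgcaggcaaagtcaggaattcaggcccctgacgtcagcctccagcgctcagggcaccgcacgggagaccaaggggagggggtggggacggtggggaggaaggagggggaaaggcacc

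The motifs searched on both strands were the AP-1 site TGANTCA, the TEAD site GGAATG, the GC box GGGCGG, the E-box CACGTG and the CArG box bound by SRF. They do not overlap in these 5 windows. ITGA6 held 1 E-box, BCAR1 held 1 AP-1 site, ZYX held 5 GC boxes and TRIP6 held 1 AP-1 site, 1 TEAD site and 1 E-box. The LPP window held none, and no motif was present in all 4 members on the lower side. This describes the starts shown only. Other starts of LPP had an AP-1 site, a TEAD site and a GC box, and other starts of ITGA6 and BCAR1 had a GC box. Over all 67 windows of the members, an AP-1 site was found in 10.4%, beside 6.57% of 35116 windows of all genes, a TEAD site in 14.9% beside 11.9%, a GC box in 47.8% beside 42.6% and an E-box in 4.48% beside 6.34%. The CArG box was found in 5 member windows (7.46%, beside 1.16% of all windows), which belonged to ITGB1BP1, ITGB6, TES and other starts of LPP. ITGB6 was not measured on the array. Windows of the same gene were counted separately, among members and among all genes, and no share by gene was computed. These are matches of letters only.

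Among the 8 alpha chains, 2 receptors of laminin, ITGA3 and ITGA6, stood lowest. ITGA3, which pairs with ITGB1 to bind laminin, was at 458, 487 and 431 on the untreated arrays, at 271, 376 and 318 at 4 h and at 254, 302 and 308 at 24 h. Every treated array was thus below every untreated one at both times. The log2 change was -0.65 ± 0.14 (SE) at 24 h, 1.57-fold lower with an adjusted p of 0.0802, and -0.50 ± 0.14 at 4 h (adjusted p = 0.209). ITGA6, a laminin-binding partner of ITGB4 and ITGB1, was at 627, 630 and 587 untreated, at 365, 538 and 515 at 4 h and at 440.1, 314 and 372 at 24 h. Its treated arrays also lay below all untreated ones, with the lowest 24 h array at replicate 2 and the lowest 4 h array at replicate 1. The log2 change was -0.70 ± 0.17 at 24 h (1.62-fold lower, adjusted p = 0.101) and -0.39 ± 0.17 at 4 h (adjusted p = 0.407). Its second probe set gave -0.59 ± 0.16 at 24 h, on the same side as the first.

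The other alpha chains were closer to 0 or more variable. ITGA5, the alpha chain of the main fibronectin receptor, had means of 681 ± 63 (SD, n = 3) untreated, 552 ± 120 at 4 h and 545 ± 57 at 24 h, a log2 change of -0.31 ± 0.17 at both times (adjusted p = 0.403 at 24 h). ITGAV, which pairs with several beta chains to bind vitronectin and other ligands, was at 281, 240 and 175 untreated, at 210.0, 319 and 506 at 4 h and at 235, 267 and 353 at 24 h. The 3 arrays at 4 h spanned a wider range than the other 6 together, and the log2 change was 0.48 ± 0.29 (adjusted p = 0.567). ITGA4, which binds fibronectin and VCAM1, had a log2 change of -0.18 ± 0.17 at 24 h. ITGA7, ITGA8 and ITGA9 had no group mean above 16.2 and overlapped between all groups, so their changes of 0.05, 0.42 and -0.31 at 24 h carry little information.

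Of the 4 measured beta chains, ITGB4 was the one past an unadjusted p of 0.05. ITGB4, the laminin receptor chain of hemidesmosomes, was at 14.4, 20.7 and 20.6 untreated, at 20.1, 32.6 and 13.7 at 4 h and at 3.6, 3.0 and 9.9 at 24 h. The 24 h arrays lay below all others (log2 change -0.69 ± 0.20 against untreated, adjusted p = 0.132; -0.81 ± 0.20 against 4 h, adjusted p = 0.160). All of these values are near background, and among its 4 other probe sets, dimmer still, the change at 24 h ran from -0.23 to 0.35. ITGB5, which pairs with ITGAV, had means of 1213 ± 41, 1201 ± 154 and 1339 ± 102, a log2 change of 0.14 ± 0.13 at 24 h (adjusted p = 0.663). ITGB3, the other vitronectin receptor chain, varied from 7.1 to 48.2 among the untreated arrays alone, and ITGB8 was dim, with no group mean above 25.7. ITGB1, the common partner of most of these alpha chains and not itself a member, had means of 3085 ± 102, 2916 ± 449 and 2553 ± 112, a log2 change of -0.27 ± 0.13 at 24 h (adjusted p = 0.364).

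**Figure D2:**
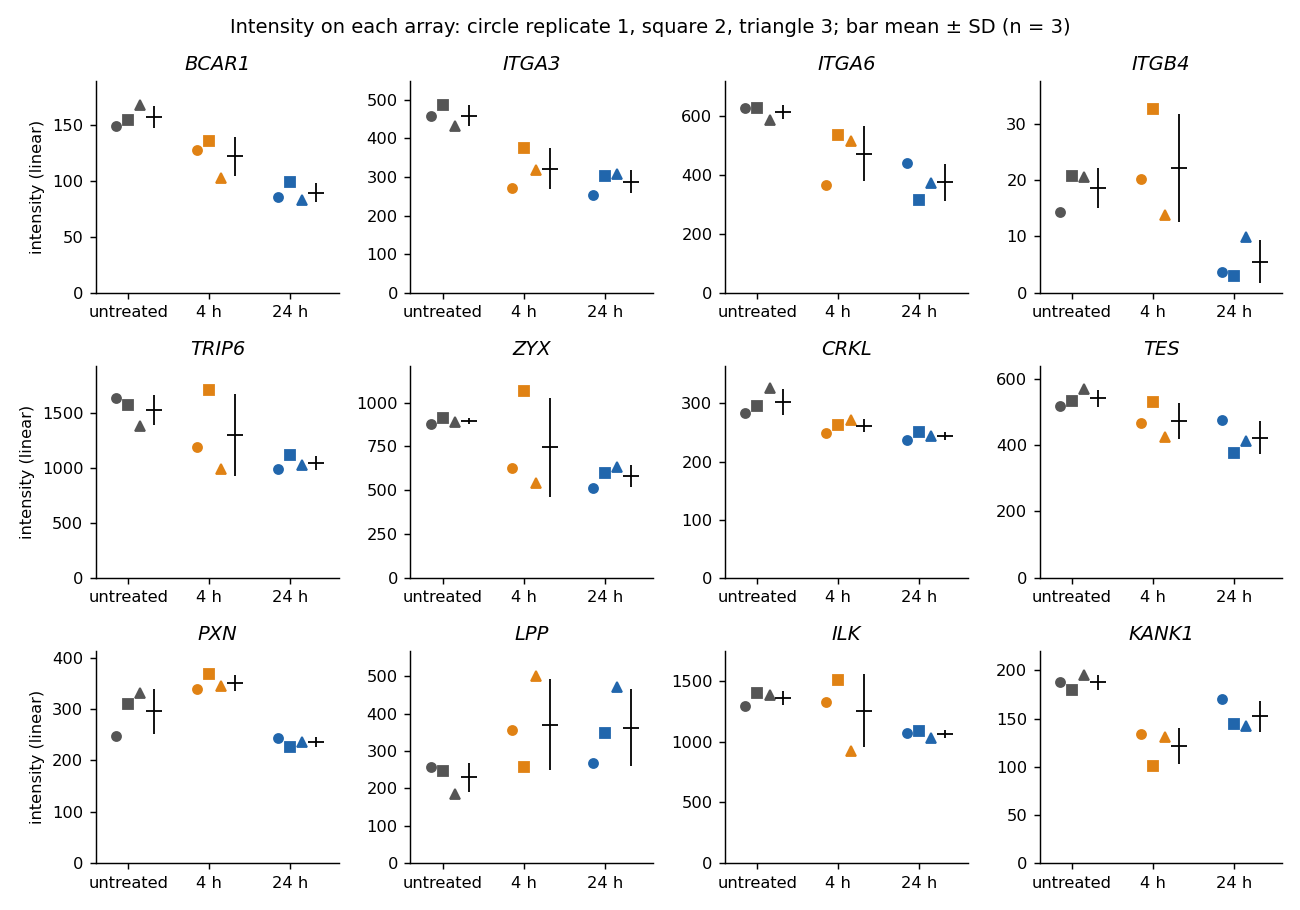
Intensity on each array, on a linear axis from 0, for the 12 members with the lowest p at 24 h against untreated, with the mean ± SD of 3 arrays beside the points. BCAR1, ITGA3 and ITGA6 have every 24 h array below every untreated array, ZYX and TRIP6 have their highest 4 h value at replicate 2 (square), and PXN lies above the untreated arrays at 4 h and below them at 24 h.

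The integrin activators and their inhibitors gave 1 member past an unadjusted p of 0.05. KANK1, which sits at the rim of adhesions and binds talin, was at 188, 180 and 195 untreated, at 134, 100.3 and 131 at 4 h and at 171, 144 and 142 at 24 h. It was lowest at 4 h, and the 24 h arrays lay between the other groups without overlap. The log2 change was -0.57 ± 0.14 at 4 h (1.49-fold lower, adjusted p = 0.142) and -0.28 ± 0.14 at 24 h (adjusted p = 0.363). A dimmer KANK1 probe set, with a mean of 25.3, gave 0.32 ± 0.16 at 4 h and 0.185 ± 0.16 at 24 h. The remaining KANK1 probe set, with a mean of 2.36, gave 4.6e-04 and 0.008. The mean over all 3 was -0.08 at 4 h (adjusted p = 0.81) and -0.03 at 24 h (adjusted p = 0.93). The lower KANK1 level was thus seen with 1 of 3 probe sets. FERMT2, which encodes kindlin-2, a coactivator of integrins with talin, was at 942, 912 and 970 untreated, at 1182, 1002 and 1173 at 4 h and at 953, 927 and 934 at 24 h. All 4 h arrays were above all others, with a log2 change of 0.24 ± 0.11 against untreated (adjusted p = 0.424) and -0.25 ± 0.11 from 4 h to 24 h (adjusted p = 0.447). Its other 2 probe sets gave 0.12 and 0.48 at 4 h against untreated. The talins had log2 changes at 24 h of -0.31 ± 0.17 for TLN1 and -0.17 ± 0.13 for TLN2. The other 2 probe sets of TLN1 gave 0.32 ± 0.26 and 0.36 ± 0.17, and the mean over all 3 gave 0.12 (adjusted p = 0.698), so its sign turns with the probe set. These 2 were dimmer, with means of 44.7 and 6.27 beside 122.9 for the brightest. The first of them was at 46.2, 17.7 and 61.6 on the untreated arrays. KANK2 had a log2 change at 24 h of -0.08 ± 0.18, and ITGB1BP1, which encodes ICAP-1, a competitor of talin on the ITGB1 tail, one of 0.04 ± 0.12. A second ITGB1BP1 probe set was at 179, 193 and 162 untreated and at 136, 130 and 110.5 at 24 h, without overlap, a log2 change of -0.46 ± 0.13 (adjusted p = 0.157 over all probe sets), and the mean over its probe sets was -0.05 (adjusted p = 0.870). A dimmer probe set of KANK2, singled out after its values were seen, was at 32.7, 28.6 and 37.6 untreated and at 8.4, 10.1 and 8.1 at 4 h, a log2 change of -0.97 ± 0.18 (adjusted p = 0.0923 over all probe sets) where the brightest one gave -0.15.

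The 7 linkers to actin had a median log2 change of -0.04 at 24 h and -0.09 at 4 h, with none past an unadjusted p of 0.05. ILK, the pseudokinase at the centre of the complex with PINCH and parvin, was at 1300, 1408 and 1386 untreated, at 1330, 1516 and 926 at 4 h and at 1073, 1092 and 1033 at 24 h. The 24 h arrays were the tightest group and lay below all untreated arrays (log2 change -0.35 ± 0.17, adjusted p = 0.357), whereas the 4 h arrays spanned both. Vinculin (VCL), which strengthens the bond between talin and actin, had means of 1632 ± 106, 1822 ± 152 and 1586 ± 93, a log2 change of -0.04 ± 0.12 at 24 h (adjusted p = 0.914). The parvins PARVA and PARVB had changes of 0.11 ± 0.17 and -0.20 ± 0.16 and the tensins TNS1 and TNS3 of -0.20 ± 0.15 and 0.22 ± 0.15 at 24 h. LIMS1, which encodes PINCH-1, was read from a probe set with no group mean above 9.73, after 2 probe sets shared with LIMS3 or LIMS4 were left out, so it has no usable level here. For PARVB the choice of probe set mattered: 3 of its others gave -0.70 ± 0.20, -0.59 ± 0.27 and -0.59 ± 0.19 at 24 h. The rest gave 0.01 ± 0.12 and 0.20 ± 0.22. The 7 probe sets of PARVA ran from -0.53 to 0.52 at 24 h, with 4 above 0 and 3 below. The brightest 2, with means of 217 and 192, gave 0.11 and 0.24. The probe sets at the ends were dimmer, with means of 46.2 at -0.53 and 14.6 at 0.52. The latter was at 41.5, 12.6 and 11.6 on the 24 h arrays.

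Among the 9 measured kinases and adaptors, the adaptors carried the differences. BCAR1 encodes p130Cas, a scaffold that is stretched and phosphorylated at adhesions, and had the lowest p of all members. It was at 149, 154 and 168 untreated, at 128, 136 and 102 at 4 h and at 85.8, 98.9 and 82.8 at 24 h. The 3 groups did not overlap, and 4 h lay between the other two. The log2 change was -0.72 ± 0.13 at 24 h (1.65-fold lower, adjusted p = 0.0518), -0.33 ± 0.13 at 4 h (adjusted p = 0.350) and -0.39 ± 0.13 from 4 h to 24 h (adjusted p = 0.315). The second BCAR1 probe set, with a mean of 9.73, gave 0.49 ± 0.22 at 24 h, and with the mean over both probe sets the change was -0.11 (adjusted p = 0.811). BCAR1 passed an adjusted p of 0.05 at 24 h under 7 of the other settings of the model that were tried, and ITGA3 and ITGA6 under 3 each. The 7 include the runs without replicate 2 and without replicate 3 of the 4 h group, arrays outside this comparison. BCAR1 passed in no run that left out an untreated or a 24 h array. Without untreated replicate 1, 2 or 3 its limma adjusted p was 0.130, 0.184 or 0.190. With a pseudocount of 1 it was 0.116, and with the replicate number as a block 0.114.

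Paxillin (PXN), the scaffold that recruits FAK and vinculin, was at 247, 309 and 331 untreated, at 340, 368 and 346 at 4 h and at 245, 225 and 235 at 24 h. It thus lay above all untreated arrays at 4 h and below all of them at 24 h, by 0.25 ± 0.13 (adjusted p = 0.489) and -0.30 ± 0.13 (adjusted p = 0.295) on the log2 scale, and by -0.55 ± 0.13 from 4 h to 24 h (adjusted p = 0.144). Untreated replicate 1, at 247, lay just above the 24 h arrays. A second, dimmer PXN probe set gave -0.71 ± 0.38 at 4 h and -0.67 ± 0.38 at 24 h, so the higher level at 4 h was seen with 1 of 2 probe sets, and the mean over both gave -0.23 at 4 h.

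CRKL, an adaptor that binds phosphorylated p130Cas and paxillin, was at 283, 296 and 327 untreated, at 249, 264 and 272 at 4 h and at 237, 251 and 244 at 24 h. Treated arrays were below all untreated ones at both times, with a log2 change of -0.29 ± 0.11 at 24 h (adjusted p = 0.237) and of -0.19 ± 0.11 at 4 h (adjusted p = 0.520). Its second probe set gave -0.76 ± 0.15 at 24 h (adjusted p = 0.0761 over all probe sets). NEDD9, a relative of p130Cas, was dim, at 24.8, 29.1 and 14.1 untreated, at 6.7, 19.6 and 11 at 4 h and at 16.7, 22.8 and 14.4 at 24 h, and its groups overlapped (log2 change -0.45 ± 0.21 at 4 h, adjusted p = 0.421). The kinases were near 0 at 24 h by their brightest probe sets: PTK2, which encodes FAK, at -0.06 ± 0.11, SRC at 0.05 ± 0.18 and FYN at 0.16 ± 0.11, with adjusted p of 0.838, 0.932 and 0.532. Of the other PTK2 probe sets, 1 gave -0.61 ± 0.17 and another 0.33 ± 0.14. GIT1, a partner of paxillin in adhesion turnover, was at -0.02 ± 0.14, and CASS4, another member of the Cas family, had no group mean above 9.53.

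By the brightest probe sets, the zyxin family, testin and VASP had the lowest median of the 6 roles at 24 h, -0.35, and also held the highest single member, LPP. That median is the value of TES. With probe sets averaged, TES was at -0.02 and VASP became the middle gene of this role at -0.18. LPP was then at 0.16, below ITGAV at 0.28. Neither rank held in that run. ZYX, which encodes zyxin, was at 877, 912 and 891 untreated, at 628, 1068 and 542 at 4 h and at 512, 601 and 630 at 24 h. All 24 h arrays and 2 of the 3 arrays at 4 h lay below the untreated ones, while replicate 2 at 4 h was the highest of all 9. The log2 change was -0.61 ± 0.22 at 24 h (1.53-fold lower, adjusted p = 0.219) and -0.32 ± 0.22 at 4 h (adjusted p = 0.622). The second ZYX probe set gave -0.59 ± 0.25 at 24 h. TRIP6, a close relative of zyxin, followed the same pattern, at 1631, 1570 and 1374 untreated, at 1188, 1708 and 992 at 4 h and at 984, 1114 and 1027 at 24 h (log2 change at 24 h -0.54 ± 0.19, adjusted p = 0.197). VASP, an actin polymerase that zyxin recruits, was at 254, 258 and 250.4 untreated, at 196, 357 and 142 at 4 h and at 231, 201 and 239 at 24 h (log2 change at 24 h -0.18 ± 0.26, adjusted p = 0.803). Replicate 2 again stood highest of the 9 arrays in TRIP6 and VASP, and without it ZYX, TRIP6 and VASP were among the 9 members lower at 4 h at an unadjusted p under 0.05.

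TES encodes testin, a LIM protein that binds zyxin, and was at 518, 533 and 570 untreated, at 466, 529 and 423 at 4 h and at 475, 377 and 414 at 24 h. The 24 h arrays lay below the untreated ones (log2 change -0.35 ± 0.13, adjusted p = 0.237), but its second probe set gave -0.05 ± 0.12. LPP, another member of the zyxin family, ran the other way, at 257, 246 and 185 untreated, at 355, 256 and 500.0 at 4 h and at 267, 348 and 471 at 24 h. All 24 h arrays were above the untreated ones, and replicate 2 at 4 h was within the untreated range. The log2 change was 0.60 ± 0.26 at 24 h (1.52-fold higher, adjusted p = 0.304) and 0.62 ± 0.26 at 4 h (adjusted p = 0.378). Of the other LPP probe sets, 2 gave 0.47 ± 0.22 and 0.46 ± 0.12 at 24 h and 1 gave -0.50 ± 0.15, so the direction depends on the probe set.

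**Figure D3:**
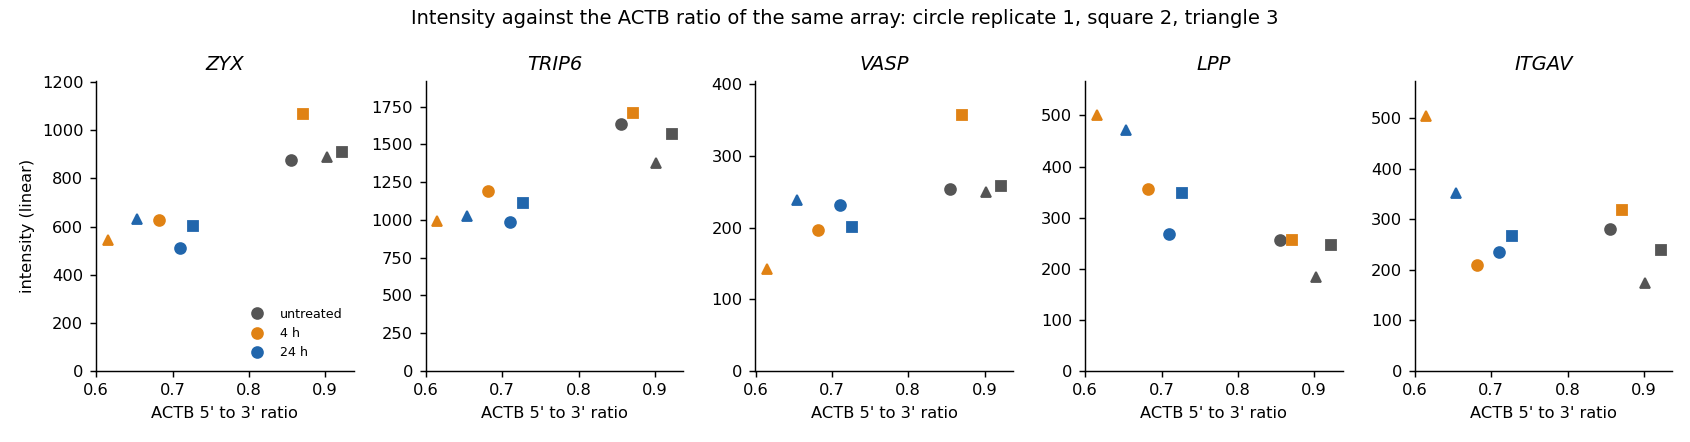
Intensity of ZYX, TRIP6, VASP, LPP and ITGAV (linear axis from 0) against the ratio of 5' to 3' ACTB signal on the same array, with 1 point per array, colour for the group and shape for the replicate. Replicate 2 at 4 h (orange square, ratio 0.871) lies with the untreated arrays on the horizontal axis, and ZYX, TRIP6 and VASP are at their highest and LPP at its untreated level on that array. ITGAV does not follow this order: it is at 319 there, above its untreated range, and at 210.0, inside that range, on replicate 1 at 4 h.

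In ZYX, TRIP6, VASP and LPP the level at replicate 2 of the 4 h group lay with or beyond the untreated arrays, as did its ACTB ratio. Among the 24 h arrays, whose ratios were all below the untreated range, ZYX and TRIP6 lay between 512 and 630 and between 984 and 1114, below their untreated arrays. VASP, between 201 and 239, was close to its untreated 250.4 to 258, and LPP at 24 h replicate 1, at 267, was close to its highest untreated value of 257. The part of the ACTB ratio in these levels was not tested, and treatment and ratio cannot be told apart at 24 h.

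**Figure D4:**
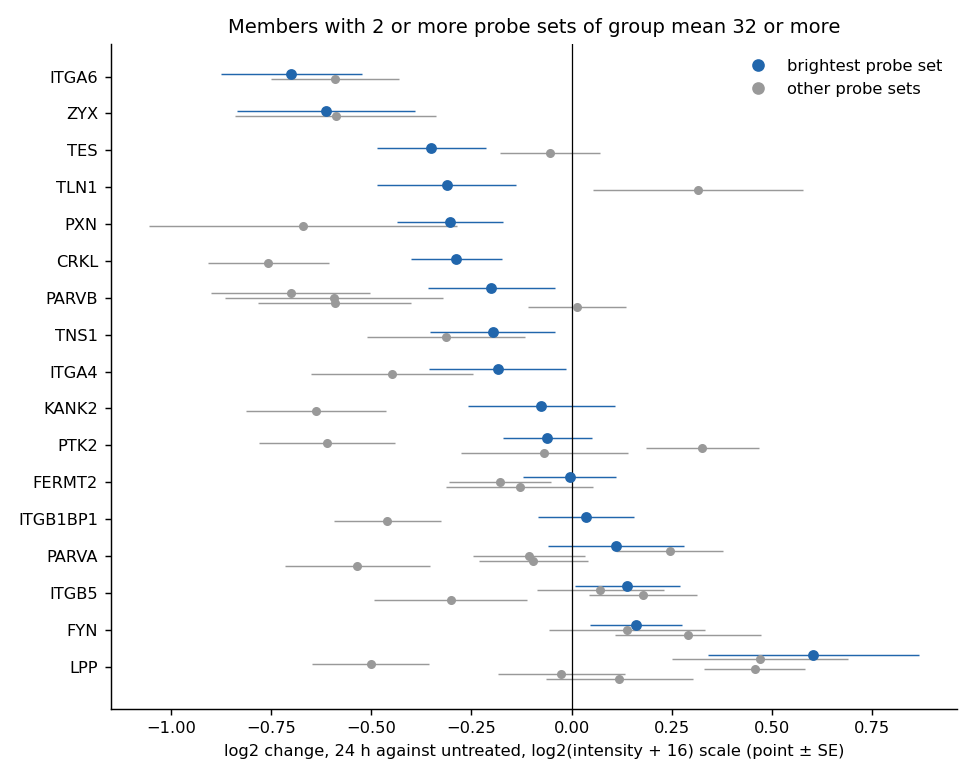
Log2 change at 24 h against untreated, with bars of 1 SE, for each member with at least 2 probe sets whose highest group mean is 32 or more; blue is the brightest probe set and grey the others. The probe sets of ITGA6 and of ZYX lie close together, while those of PTK2, LPP, TLN1, PARVA, PARVB, ITGB5 and ITGB1BP1 fall on both sides of 0.

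When every probe set was tested by itself over 41091 probe sets, an alternative added after seeing the data, none of the 129 probe sets of the members passed an adjusted p of 0.05 in any comparison, against 45, 16 and 15 in all at 24 h, at 4 h and between the times. ITGA3, ITGA5, ITGAV, TRIP6, VASP, ILK and GIT1 have a single probe set, so no second reading exists for them on this array.

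The wider pathway was described with 5 lists of other genes. No gene of these lists passed an adjusted p of 0.05 in any comparison. The list nearest to the members in function, other adhesion site and actin linking proteins, had 10 of 35 measured genes lower and 2 higher at an unadjusted p under 0.05 at 24 h, with a median log2 change of -0.08; of all genes 7.65% were lower and 8.15% higher, which is the background for each list at 24 h. Its lowest p belonged to PHLDB2, a cortical protein that anchors microtubules near adhesions, at 606 ± 20 untreated, 609 ± 97 at 4 h and 367 ± 42 at 24 h (log2 change -0.71 ± 0.14, adjusted p = 0.0619). TNS2, a tensin, followed with 79.7 ± 8.3, 47.6 ± 14.3 and 38.5 ± 9.4 (-0.82 ± 0.18, adjusted p = 0.0803). For both genes every 24 h array lay below every untreated array.

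Of 6 collagen receptors measured, 3 were lower and 1 higher at 24 h, led by ITGA11 (-0.71 ± 0.28, adjusted p = 0.252) and ITGA10 (-0.41 ± 0.16, adjusted p = 0.265). Of 19 genes of integrin activation and trafficking, 2 were lower and 1 higher. CD151, a tetraspanin that binds the laminin-binding integrins, went from 696 ± 68 untreated to 522 ± 87 at 4 h and 474 ± 25 at 24 h (log2 change -0.54 ± 0.14, adjusted p = 0.119), and the endocytic adaptor DAB2 had a change of 0.41 ± 0.14 (adjusted p = 0.196). Of 24 signalling genes downstream of integrins, 1 was lower and 3 higher, with PIK3R1, the regulatory subunit of PI3-kinase, at 0.48 ± 0.16 (adjusted p = 0.171) and the kinase PAK2 at -0.37 ± 0.12 (adjusted p = 0.173). These counts are at an unadjusted p under 0.05, as above.

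The matrix ligands of the member integrins had 4 of 21 genes lower and 1 higher at 24 h, and 0 lower and 5 higher at 4 h, where 5.43% of all genes were lower and 6.91% higher. Between the times 7 of 21 were lower and 0 higher, beside 6.15% and 5.2% of all genes. CCN1, a matricellular integrin ligand named after its values were seen, had the lowest p of this list at 4 h, with means of 1028 ± 112 untreated, 1725 ± 119 at 4 h and 1133 ± 103 at 24 h (log2 change 0.74 ± 0.13 at 4 h, adjusted p = 0.0609). FN1, which encodes fibronectin, had means of 1399 ± 132 untreated, 1772 ± 361 at 4 h and 974 ± 81 at 24 h, and LAMA2, a laminin chain, of 25.5 ± 4.7, 25.6 ± 3.7 and 12.6 ± 6.4. For each, all 24 h arrays lay below all untreated arrays (log2 change -0.51 ± 0.16, adjusted p = 0.156, and -0.55 ± 0.17, adjusted p = 0.152).

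**Figure D5:**
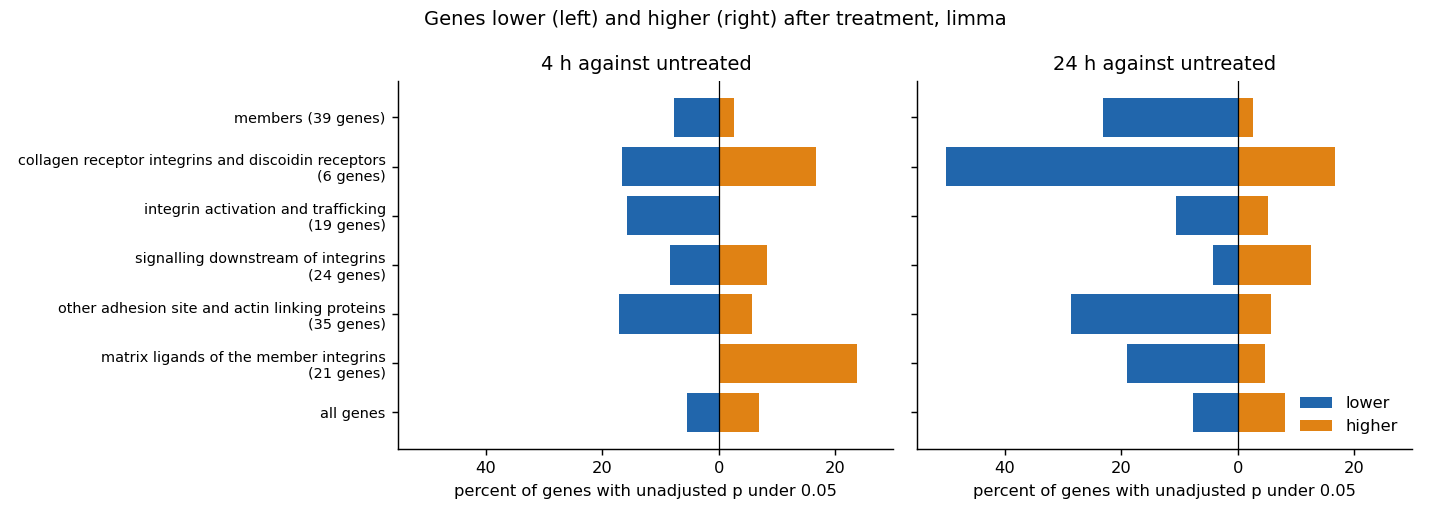
Percent of genes lower (blue, left) and higher (orange, right) at an unadjusted p under 0.05 by limma, at 4 h and at 24 h against untreated, for the 39 members, the 5 pathway lists and all genes. At 24 h the members have 23.1% lower and 2.56% higher, beside 7.65% and 8.15% of all genes. Dim genes are included. With genes under the 40th percentile filtered out, 8 of 33 members were lower, beside 12.0% of all genes.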

How the data were processed

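The authors deposited linear intensities for 54675 probe sets on each array, scaled so that each array's 2% trimmed mean is 100. R 2.9.2 and RMA are named in the submitters' processing notes without a role; the sources used here do not say how probes were summarised and give no detection calls. A common mean removes any change in total messenger RNA.

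Probe sets were named through the platform annotation, with symbols updated through the RefSeq gene table: 41091 named 1 gene, 1801 several and 11721 were not listed, after 62 control probe sets were left out. Of the first class, 41037 identifiers matched RefSeq and 54 did not. The 7 probe sets naming a member with another gene were left out. Values were taken as log2(intensity + 16), which understates changes of dim genes; the mean of 39.6% of genes lay below 16. A linear model with 1 mean per group over all 9 arrays was fitted to 19775 genes (brightest probe set each, no filter) with limma 3.58.1 in R 4.3.3, two-sided, with Benjamini-Hochberg adjustment over all genes; fold changes, SE and every p of a gene come from it. It was tested on simulated data for 24 h against untreated, with changes placed in genes above the 40th percentile. At an adjusted p under 0.05 it recovered 4.5% of 67 genes with a log2 change of 0.5. At a log2 change of 1 it recovered 64.2% of 67 genes, and at 2 it recovered 97.0% of 66. Changes of the size seen in most members would thus mostly not be called. Array measures were compared with exact permutation tests.

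The members, roles and lists were chosen with earlier results of these data known. Values array by array are given for the 12 members with the lowest p at 24 h against untreated, the 6 lowest at 4 h and the 4 lowest between the times, and for each list the 2 genes with the lowest p at 24 h are named; ITGAV, VASP, ITGB1 and CCN1 were added after their values were seen. Alternatives were pseudocounts of 1 and 64, quantile normalization, median centring, the mean over probe sets, a filter at the 40th percentile, the compared groups only, an intensity trend, the replicate number as a block and leaving out each array. The number of arrays limits the precision.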

Additional observations from a re-analysis of the deposited data

Results flagged for a closer look

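Paxillin (PXN) differed between the 2 treatment times: all 3 arrays at 4 h lay above all untreated arrays and all 3 at 24 h below them, and the difference between the times was -0.55 on the log2 scale (-0.5478, limma adjusted p = 0.144). The difference did not pass the adjusted threshold of 0.05, and the second PXN probe set, at 55.9 ± 32.3 at 4 h and 52.3 ± 11.1 at 24 h (SD, n = 3), gave 0.04 ± 0.38; the mean over both probe sets put PXN at -0.23 at 4 h against untreated, on the other side of 0.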

How the results depend on the processing

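The number of members past an adjusted p of 0.05 at 24 h against untreated (limma), 0 as reported, was 3 with a pseudocount of 64, with genes under the 40th percentile filtered out and with the intensity trend (BCAR1, ITGA3 and ITGA6), and 1 (BCAR1) with quantile normalization and with the compared groups only. It ran from 0 to 1 over the runs leaving out 1 array each: BCAR1 passed without replicate 2 of the 4 h group (adjusted p = 0.0414) or without its replicate 3 (adjusted p = 0.0457). At 4 h it was 1 (KANK1) with a pseudocount of 64, and between the times 1 (PXN) with a pseudocount of 64 and with the intensity trend. The share of all genes past an unadjusted p of 0.05 also moved with the setting, and is given beside the members. Members past it numbered 10 at 24 h (9 lower and 1 higher, beside 7.65% and 8.15% of all genes). They numbered 6 to 13 with 1 array left out. Without untreated replicate 3, 6 were lower and 0 higher (6.28% and 6.21%). Without replicate 2 of the 4 h group, 12 were lower and 1 higher (8.35% and 8.61%). At 4 h members past it numbered 4 as reported (3 lower and 1 higher, beside 5.43% and 6.91% of all genes). A pseudocount of 64 gave 6 lower and 3 higher (6.81% and 7.53%), and the intensity trend 5 and 3 (6.48% and 7.09%). Of 33 members left by the filter, 6 were lower and 2 higher (8.17% and 9.74%). Quantile normalization gave 5 and 2 (6.26% and 6.3%), and averaged probe sets 5 and 2 (4.96% and 5.99%). With 1 array left out, 3 to 11 passed. Between the times they numbered 3 as reported (3 lower and 0 higher, beside 6.15% and 5.2% of all genes). Quantile normalization gave 6 and median centring 5, with the shares given above. A pseudocount of 64 gave 5 lower and 2 higher (6.67% and 6.57%), and the intensity trend 6 and 2 (6.17% and 6.27%). With 1 array left out, 3 to 7 passed. Same-numbered samples did not deviate together (correlations of -0.045 to 0.057). With the replicate number as a block, 0 members passed the adjusted threshold. At the unadjusted one 8 were lower and 0 higher at 24 h (7.57% and 7.81% of all genes). At 4 h 4 were lower and 1 higher (5.21% and 6.74%), and between the times 3 and 1 (5.96% and 4.93%). The 12, 6 and 4 members with the lowest p kept their sign under the alternatives tried. Over all 39 members, averaging probe sets changed the sign of 5 at 24 h (ITGA7, ITGB1BP1, ITGB8, NEDD9 and TLN1), 8 at 4 h (PXN and TES among them) and 6 between the times; leaving out 1 array changed the sign of 0 to 4, 0 to 5 and 0 to 6, and other settings that of at most 3. The causes of these shifts were not tested. Quantile normalization and median centring moved the median of all genes by at most 0.04 on the log2 scale. Low signal limits the 8 members with no group mean of 32 or more, ITGB4 and NEDD9 among them.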
